A study of Capra hircus with 10 samples.

Results

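The transcripts typed misc_RNA in the deposited annotation of goat ovary RNA were examined. All rows with this type were taken, which gave 176 transcripts under 174 gene symbols, of 50146 transcripts in all. The data came from whole ovaries of Anhui white goats collected at a slaughterhouse, 5 in the follicular phase and 5 in the luteal phase. The labels name no age, treatment or genotype, and each ovary gave 1 library of total RNA depleted of ribosomal RNA. The phase was the only labelled difference between the groups. The values are FPKM, fragment numbers corrected for transcript length and for the total mapped in each library, so levels can be compared between transcripts. The read depth behind each ovary is unknown from these values, and the spread between ovaries is the measure of precision used here.

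The type misc_RNA is a catch-all of the RefSeq annotation for transcripts that are neither messenger RNAs nor placed in a class such as lncRNA. It takes in spliced forms without an accepted reading frame and transcripts of pseudogenes, which are gene copies that lost the ability to encode the original protein but may still be transcribed. In the ovary, the follicular phase is marked by growing follicles with dividing granulosa cells, and the luteal phase by the corpus luteum, the gland that forms from the ovulated follicle and secretes progesterone.

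The type was checked against the RefSeq gene table of the goat assembly ARS1.2, in which all 176 accessions were found. RefSeq typed the genes of 157 of these transcripts as transcribed pseudogenes and the genes of the other 19 as misc_RNA. No misc_RNA transcript shared a symbol or gene identifier with a protein_coding transcript, so the planned comparison of noncoding and coding forms of 1 gene had no pair to measure. In 175 of 176 cases the symbol was a LOC number without a gene name. The exception was XR_001917084.1 of C23H6orf136, with a mean FPKM of 1.60 ± 0.217 in the follicular and 1.97 ± 0.404 in the luteal ovaries (SD, n = 5 each), values that overlapped between the phases.

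The misc_RNA transcripts were more abundant, transcript by transcript, than the other annotated noncoding class. Their median FPKM was 2.59 ± 0.135 over the follicular and 2.26 ± 0.0978 over the luteal ovaries (SD, n = 5 each). The 997 annotated lncRNA transcripts had medians of 0.742 ± 0.0802 and 0.691 ± 0.0263. The median over 43766 single protein_coding transcripts was 0.508 ± 0.0457 and 0.466 ± 0.0220 (1.58 ± 0.101 and 1.47 ± 0.0492 among those with a mean FPKM of at least 0.1), and after their FPKM were summed by gene it was 3.03 ± 0.220 and 2.85 ± 0.0979. The median of the misc_RNA transcripts therefore lay above those of lncRNA and single coding transcripts in each of the 10 ovaries. It ran from 2.48 to 2.82 in the follicular and from 2.11 to 2.37 in the luteal ovaries, against 2.75 to 3.24 and 2.71 to 2.96 for coding genes. Among those with a mean FPKM of at least 0.1, the coding genes had medians of 6.39 to 7.08 in the follicular and 6.14 to 6.50 in the luteal ovaries, and the misc_RNA transcripts 2.51 to 2.82 and 2.28 to 2.45. Within the misc_RNA class, the medians of the pseudogene transcripts were 2.93 ± 0.209 and 2.47 ± 0.102, and those of the 19 transcripts that RefSeq also types misc_RNA were 0.845 ± 0.177 and 1.09 ± 0.206.

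A few transcripts held most of the class. Of the 176, 12 had a mean FPKM of at least 100, 28 lay from 10 to under 100, 85 from 1 to under 10 and 51 under 1. The summed FPKM of the class ran from 4553 to 5312 in the follicular ovaries and from 3265 to 3959 in the luteal ovaries, with no overlap. This was 0.925 to 0.993% of all FPKM in the follicular and 0.722 to 0.801% in the luteal phase. The 10 most abundant transcripts carried 62.5 to 68.8% of the summed FPKM in the follicular and 61.8 to 66.9% in the luteal ovaries. Between 170 and 174 of the transcripts were above 0 in each ovary. In each phase 9 were listed at 0 in at least 1 ovary. Of these, 3 in the follicular and 2 in the luteal phase reached 1 FPKM or more in another ovary of the same phase. Whether a listed 0 is absence or a failed estimate was not tested.

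**Figure D1:**
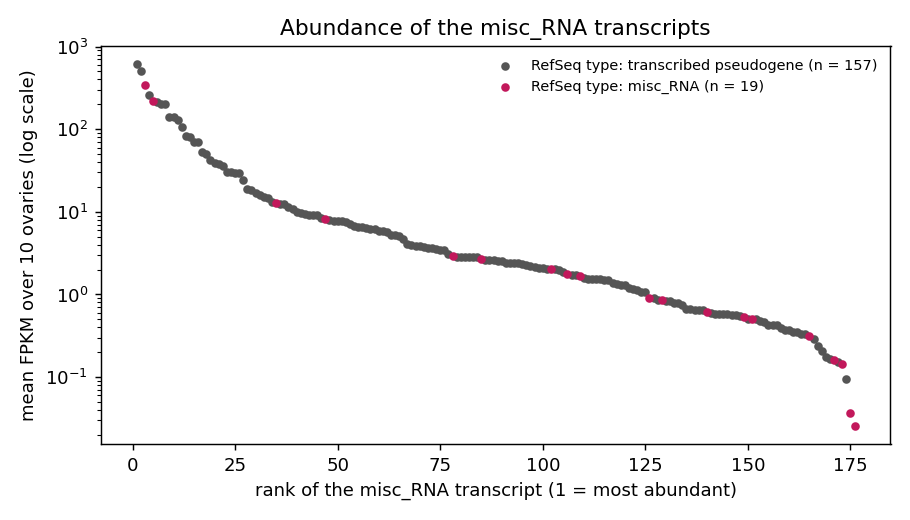
Mean FPKM over the 10 ovaries (log scale) of the 176 misc_RNA transcripts, ordered by rank and coloured by the RefSeq type of the gene, 157 transcribed pseudogene and 19 misc_RNA. The means run from 0.0256 to 614, and 12 transcripts lie at or above 100.

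The most abundant member was XR_001918790.1 of LOC108637143, a transcribed pseudogene. Its FPKM was 649, 808, 700, 770 and 677 in follicular ovaries 1 to 5, and 509, 577, 488, 532 and 434 in luteal ovaries 1 to 5. Every luteal ovary was below every follicular ovary, and the log2 fold change, luteal minus follicular, was -0.51 (SE 0.09, limma adjusted p = 0.00443). With the log values of each ovary shifted to a common median, the adjusted p was 0.0510.

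XR_001297322.2 of LOC102175922, also a transcribed pseudogene, was the next in abundance. It had 559, 686, 579, 685 and 367 FPKM in the follicular and 451, 374, 456, 548 and 407 in the luteal ovaries. Follicular ovary 5 was the lowest of all 10, the phases overlapped, and the change did not pass the test (-0.34, SE 0.17, limma adjusted p = 0.207). Without that ovary the change was -0.49 (limma adjusted p = 0.0249).

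XR_001917728.1 of LOC102180517, typed misc_RNA in both sources, was the third, with 232, 443, 337, 276 and 428 FPKM in the follicular and 325, 398, 299, 367 and 283 in the luteal ovaries. The phases overlapped throughout, with the luteal values inside the follicular range. The log2 fold change of -0.0050 (SE 0.18, limma adjusted p = 0.990) changed sign with the scaling.

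The fourth, XR_001919568.1 of the pseudogene LOC108638047, varied little within a phase. It measured 305, 327, 300, 308 and 283 FPKM in the follicular ovaries and 238, 211, 208, 218 and 188 in the luteal ovaries. All luteal values were lower than all follicular values, and the change was -0.52 (SE 0.07, limma adjusted p = 0.000977).

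The remaining 6 of the 10 most abundant ranged from 141 to 221 in mean FPKM. Of these, 5 fell in the luteal phase. XR_001918468.1 of LOC108636572 had a log2 fold change of -0.47 (SE 0.09, limma adjusted p = 0.00472). XR_001296292.2 of LOC102190045 had 207 to 273 FPKM in the follicular and 129 to 194 in the luteal ovaries, a change of -0.53 (SE 0.12, limma adjusted p = 0.0150, and 0.0595 after the shift to a common median). XR_001918416.1 of LOC108636537 had 153 to 178 against 96.5 to 129 FPKM and a change of -0.55 (SE 0.09, limma adjusted p = 0.00252). These are transcribed pseudogenes, and their phases did not overlap.

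The calls of the other 2 rested on small margins. XR_001919245.1 of LOC108637684 changed by -0.48 (limma adjusted p = 0.0212), and the adjusted p was 0.0503 without follicular ovary 4, 0.0540 without the trend in eBayes and 0.112 after the shift to a common median. XR_001918811.1 of LOC102189078, typed misc_RNA in both sources, changed by -0.25 (limma adjusted p = 0.0403). Its phases overlapped, from 216 to 256 FPKM in the follicular and 193 to 223 in the luteal ovaries, and the call was lost on leaving out any 1 of 7 ovaries (follicular 2, 4 and 5, luteal 1, 2, 3 and 5), with adjusted p from 0.0667 to 0.0894 over these fits, and under other settings, up to 0.332 after the shift to a common median.

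XR_001296727.2 of the pseudogene LOC102183898 varied most among the 10. It had 142, 149, 479, 348 and 231 FPKM in the follicular and 73.5, 171, 167, 124 and 113 in the luteal ovaries. Follicular ovaries 3, 4 and 5 were above all luteal ovaries and follicular ovaries 1 and 2 were within their range. The log2 fold change of -0.96 (SE 0.36) did not pass the test (limma adjusted p = 0.0958).

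**Figure D2:**
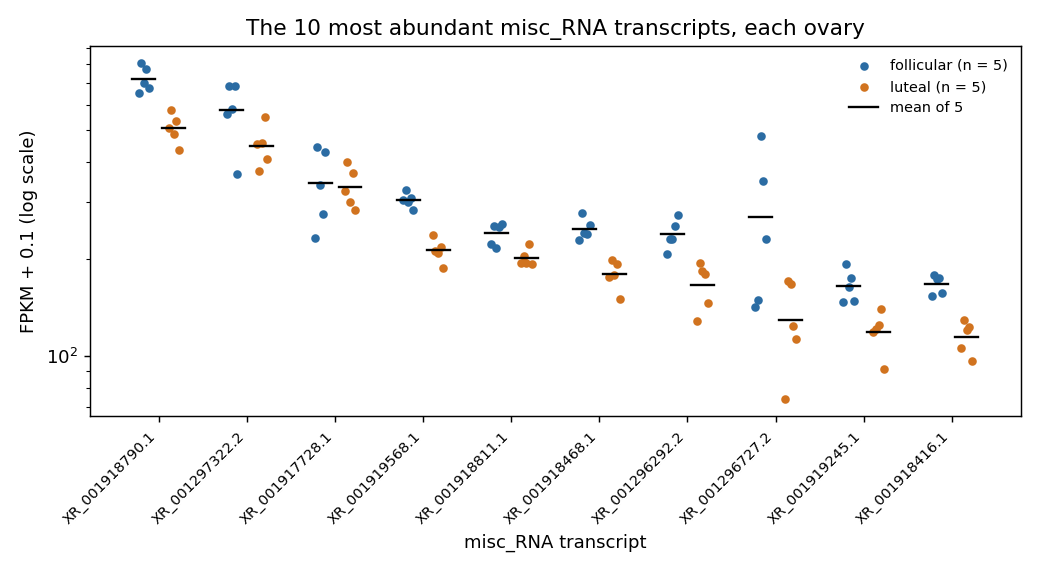
FPKM plus 0.1 (log scale) of the 10 most abundant misc_RNA transcripts, 1 point per ovary, 5 follicular and 5 luteal, with a bar at the mean of each phase. The phases are apart for XR_001918790.1 and XR_001919568.1 and overlap for XR_001917728.1 and XR_001296727.2.

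The comparison of the luteal with the follicular phase covered 172 of the 176 transcripts, those with at least 0.1 FPKM in at least 5 ovaries. Of these, 40 were lower and 4 were higher in the luteal phase at a limma adjusted p under 0.05. Over all 32842 transcripts tested, 9.82% were lower and 7.47% higher (17.3% in either direction), and over the misc_RNA transcripts 23.3% were lower and 2.33% higher (25.6%). The annotated lncRNA transcripts gave 10.1% lower and 5.38% higher, and protein_coding transcripts 9.79% lower and 7.57% higher. The phases did not overlap for 41 of the 44 misc_RNA transcripts called (93.2%), and for 76.1% of the 5677 transcripts called in all. The median log2 fold change was -0.34 over the misc_RNA transcripts tested and -0.15 over all transcripts tested.

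The lean to lower luteal values depended in part on scaling. Of the 44 misc_RNA transcripts called, 90.9% were lower in the luteal phase, against 56.8% of the calls over all transcripts. With the log values of each ovary shifted to a common median, 19 were lower and 6 higher (76%, with 42.3% over all transcripts). Quantile normalization gave 34 lower and 7 higher (82.9% and 51.1%), and rescaling to TPM gave 28 lower and 6 higher (82.4% and 40.8%). The summed FPKM over all transcripts was itself 492324 to 540124 in the follicular and 452508 to 503276 in the luteal ovaries.

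More abundant transcripts were called more often, in this class and in the whole table. At a mean of 100 FPKM or more, 8 of 12 misc_RNA transcripts were lower and 0 higher, where 32.8% of all transcripts at that level were lower and 19.8% higher. From 10 to under 100 FPKM, 16 of 28 were lower and 2 higher, where all transcripts gave 17.2% lower and 16.2% higher. From 1 to under 10 FPKM, 14 of 85 were lower and 1 higher, beside 10.8% and 7.14%. Under 1 FPKM, 2 of 47 were lower and 1 higher, beside 5.01% and 3.81%, so at that level the class was close to the background. The median log2 fold changes of the class in these ranges were -0.49, -0.45, -0.29 and -0.22, and those of all transcripts were -0.13, -0.05, -0.17 and -0.19.

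Most of the transcripts tested were of pseudogenes, and so were most of the calls. Of 156 pseudogene transcripts tested, 38 were lower and 1 was higher, with a median log2 fold change of -0.37. Of the 16 tested that RefSeq also types misc_RNA, 2 were lower and 3 higher, with a median of 0.02. The difference between the 2 types was not tested. The study's supplementary list relates lncRNAs to genes of reproduction by co-expression or location, and it holds 25 of the 176 transcripts. The study did this for lncRNAs it had called different between the phases in these same ovaries. Calls among them here were thus largely set in advance, and are no independent evidence of a difference or of its direction. Of these 25, 21 were lower and 1 higher here, and of the 147 others tested 19 were lower and 3 higher. Those of the 25 not described elsewhere are given below with the largest falls.

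**Figure D3:**
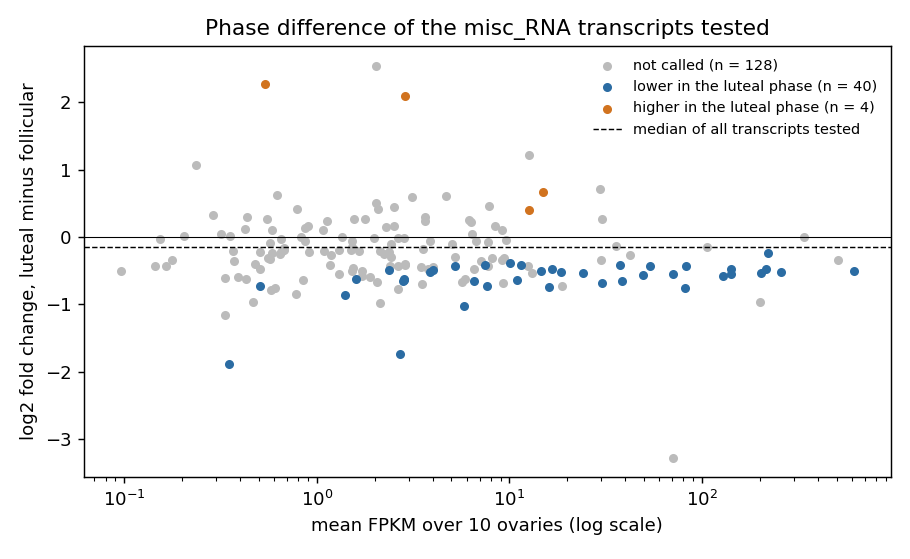
Log2 fold change (luteal minus follicular) of the 172 misc_RNA transcripts tested against their mean FPKM over 10 ovaries (log scale), with the 40 called lower, the 4 called higher and the 128 not called in separate colours and the median of all transcripts tested (-0.15) as a dashed line. Above 100 FPKM 8 of 12 are called lower and none higher.

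In the luteal phase 4 transcripts rose. XR_001919152.1 of LOC102173137, typed misc_RNA in both sources, had 0.499, 0.878, 0.987, 0.855 and 2.07 FPKM in the follicular and 8.13, 3.80, 5.05, 3.87 and 2.68 in the luteal ovaries. All luteal ovaries were above all follicular ovaries, and the change was 2.09 (SE 0.37, limma adjusted p = 0.00389).

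XR_001919168.1 of LOC102186538, of the same type, was low in the follicular phase, at 0.116, 0.214, 0, 0.0526 and 0.316 FPKM, and higher in the luteal phase, at 0.892, 0.805, 0.831, 1.20 and 0.939. The phases did not overlap. The change of 2.27 (SE 0.38, limma adjusted p = 0.00299) is on the log2(FPKM + 0.1) scale, which understates changes at this level, and it ran from 0.77 with a pseudocount of 1 to 3.38 with 0.01.

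The other 2 rose less but from higher levels. XR_001919417.1 of the pseudogene LOC108637897 had 10.2 to 12.8 FPKM in the follicular and 14.7 to 21.2 in the luteal ovaries (0.67, SE 0.11, limma adjusted p = 0.00301). XR_001918343.1 of LOC102174292, typed misc_RNA in both sources, had 10.4 to 11.8 and 12.5 to 17.1 FPKM (0.39, SE 0.09, limma adjusted p = 0.0169). The phases did not overlap in either.

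With a pseudocount of 0.1, the largest fall among the calls was that of XR_001296799.2 of the pseudogene LOC102169126, a low transcript. It had 0.592, 0.839, 0.569, 0.379 and 0.541 FPKM in the follicular and 0.355, 0.00455, 0.158, 0.0605 and 0 in the luteal ovaries. The phases did not overlap, though luteal ovary 1 came close to follicular ovary 4, and the change was -1.88 (SE 0.43, limma adjusted p = 0.0141). Its size depended on the pseudocount, from -3.32 with 0.01 to -0.51 with 1, and with 1 it was smaller than the -1.17 of XR_001918219.1.

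XR_001917284.1 of LOC102175542, a pseudogene transcript, had 7.10, 10.2, 6.88, 8.42 and 6.42 FPKM in the follicular and 3.21, 5.21, 3.60, 3.80 and 3.06 in the luteal ovaries. The phases were apart, and the change was -1.03 (SE 0.17, limma adjusted p = 0.00310).

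The smallest adjusted p of the class was that of XR_001917388.1 of the pseudogene LOC108634138. It had 96.2, 108, 100, 103 and 102 FPKM in the follicular and 58.9, 71.8, 59.2, 61.4 and 52.2 in the luteal ovaries. The follicular ovaries lay close together, and the change was -0.75 (SE 0.08, limma adjusted p = 0.000250). XR_001918304.1 of LOC108636366 was similar in size of change, with 17.1 to 23.1 FPKM in the follicular and 10.9 to 12.9 in the luteal ovaries (-0.74, SE 0.09, limma adjusted p = 0.000621).

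Further pseudogene transcripts fell by less than 1 on the log2 scale with no overlap of the phases. XR_001295427.2 of LOC102177717 went from a mean of 1.83 ± 0.410 to 0.956 ± 0.180 FPKM (-0.86, SE 0.21, limma adjusted p = 0.0180), and with a pseudocount of 1 the change was -0.52. XR_310693.3 of LOC102174238 went from 9.58 ± 1.29 to 5.72 ± 0.779 FPKM (-0.73, SE 0.13, limma adjusted p = 0.00437). XR_001295859.1 of LOC102178261 went from 47.2 ± 5.08 to 29.9 ± 4.05 FPKM (-0.66, SE 0.11, limma adjusted p = 0.00266), where ± is the SD over 5 ovaries.

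Among the pseudogene transcripts that the study lists, several abundant ones fell with the phases apart. XR_001295464.2 of LOC102169442 had 131, 165, 151, 170 and 157 FPKM in the follicular and 105, 112, 98.4, 113 and 90.1 in the luteal ovaries (-0.58, SE 0.09, limma adjusted p = 0.00209). XR_001917652.1 of LOC102180659 had 49.8 to 68.6 against 35.3 to 43.2 FPKM (-0.56, SE 0.09, limma adjusted p = 0.00265). XR_001918457.1 of LOC102189480 had 11.0 to 15.3 against 6.79 to 10.5 FPKM (-0.64, SE 0.13, limma adjusted p = 0.00938). These 3 were called in every fit that was run.

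For 5 others of the listed pseudogene transcripts the call held with each ovary left out but not after the shift to a common median. XR_001296975.2 of LOC102187166 had 70.9 to 94.4 FPKM in the follicular and 46.5 to 68.9 in the luteal ovaries (-0.55, limma adjusted p = 0.0146, and 0.0630 after the shift). XR_001297562.2 of LOC102190770 had 16.9 to 22.8 against 11.5 to 15.4 FPKM (-0.47, 0.0171 and 0.102), and XR_001295475.2 of LOC102175637 had 14.7 to 19.4 against 10.8 to 13.9 FPKM (-0.51, 0.00752 and 0.0593). The phases were apart in these.

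The same held for XR_001296143.2 of LOC102183244, with 10.5 to 12.1 FPKM in the follicular and 7.37 to 10.1 in the luteal ovaries (-0.39, limma adjusted p = 0.0200, 0.111 after the shift and 0.0508 without the trend in eBayes). XR_001296363.2 of LOC102185788 had 30.1 to 46.8 against 18.6 to 31.9 FPKM, with luteal ovary 2 above follicular ovary 4 (-0.68, limma adjusted p = 0.0185, and 0.0606 after the shift).

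For 3 more of the listed transcripts, all of pseudogenes and with the phases apart, the call depended on single ovaries. XR_001917612.1 of LOC108634457, inside TENM1, had 36.4 to 52.5 against 29.9 to 35.6 FPKM (-0.42, limma adjusted p = 0.0265), and the adjusted p was 0.0510 to 0.0618 without follicular ovary 2 or 4 or luteal ovary 3, 4 or 5. XR_001295819.2 of LOC102173454, inside PROM1, a membrane glycoprotein also known as CD133, had 18.8 to 25.8 against 11.0 to 18.2 FPKM (-0.52, limma adjusted p = 0.0351), and the adjusted p was 0.0513 to 0.0771 without follicular ovary 1, 2, 3 or 4 or luteal ovary 1 or 5. XR_001918176.1 of LOC108636214 had 7.21 to 9.93 against 5.55 to 6.99 FPKM (-0.42, limma adjusted p = 0.0371), and the call was kept only without follicular ovary 3 or luteal ovary 2, with adjusted p of 0.0503 to 0.0842 in the other 8 fits. After the shift to a common median their adjusted p was 0.119, 0.136 and 0.167. Of the 9 fits of all ovaries with another setting, 6, 6 and 5 kept the call.

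A pair of listed pseudogene transcripts did not pass the test. XR_001919054.1 of LOC108637410 had a mean of 14.3 ± 1.72 FPKM in the follicular and 10.6 ± 1.89 in the luteal ovaries (SD, n = 5 each), with overlap (-0.44, limma adjusted p = 0.0531), and it passed without follicular ovary 3 (0.0479) or luteal ovary 2 (0.0317). XR_001917374.1 of LOC108634097 had 9.58, 3.92, 8.95, 5.57 and 8.42 FPKM in the follicular and 5.37, 4.70, 4.37, 3.53 and 4.37 in the luteal ovaries (-0.63, limma adjusted p = 0.101). Follicular ovary 2 lay within the luteal range, and without it the change was -0.83 (limma adjusted p = 0.0136).

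Of the 10 largest falls without overlap of the phases, 2 further ones had calls that depended on single ovaries and on the settings. XR_001918852.1 of the pseudogene LOC102190239 had 0.592 to 0.745 FPKM in the follicular and 0.267 to 0.471 in the luteal ovaries (-0.73, SE 0.21, limma adjusted p = 0.0401). It was called only in the fit without luteal ovary 4 among the 10 that leave out 1 ovary, with adjusted p of 0.0554 to 0.0789 in the other 9, and with a pseudocount of 1 the change was -0.29. The call was also lost without a filter on low values (adjusted p = 0.0630) and after the shift to a common median (0.0734), quantile normalization (0.0830) and rescaling to TPM (0.0871). XR_001918484.1 of the pseudogene LOC102180495 had 6.73 to 9.26 against 3.75 to 6.38 FPKM (-0.66, SE 0.17, limma adjusted p = 0.0264), and the adjusted p was 0.0521 to 0.0629 without follicular ovary 2 or 3 or luteal ovary 1, 3 or 5 and 0.0789 after the shift to a common median.

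**Figure D4:**
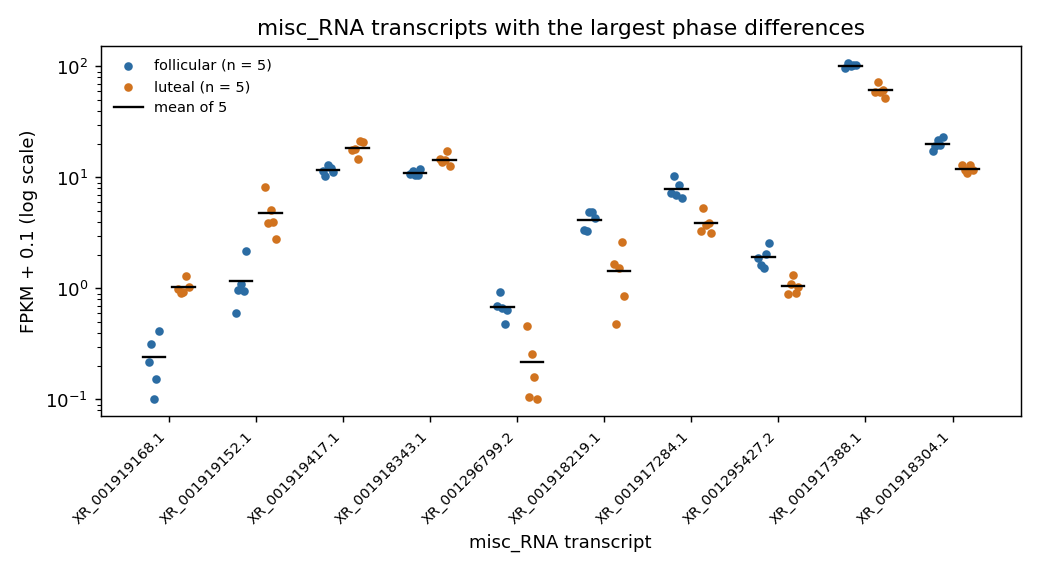
FPKM plus 0.1 (log scale) per ovary of the 4 misc_RNA transcripts called higher and of the 6 with the largest falls among those called lower without overlap of the phases, with a bar at the mean of each phase of 5 ovaries. Points at 0.1 are ovaries listed at 0, and XR_001917388.1 shows the narrowest follicular spread, from 96.2 to 108 FPKM.

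In LOC102172341 the 2 transcripts of 1 symbol went in different directions. XR_001918219.1 had 3.25, 3.18, 4.80, 4.80 and 4.21 FPKM in the follicular and 1.57, 0.382, 1.42, 2.53 and 0.763 in the luteal ovaries, and it fell (-1.74, SE 0.41, limma adjusted p = 0.0156). XR_001918218.1 had 1.81, 1.39, 0, 0 and 1.12 FPKM in the follicular and 2.92, 6.07, 2.27, 1.46 and 3.30 in the luteal ovaries. Its phases overlapped, and the change of 2.54 (SE 0.91) did not pass the test (limma adjusted p = 0.0829), while with a pseudocount of 1 it was 1.21 (limma adjusted p = 0.0451).

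Summed over both transcripts, LOC102172341 had 4.57 to 5.34 FPKM in the follicular and 3.69 to 6.46 in the luteal ovaries, which overlapped. XR_001918219.1 made up 64.2 to 100% of this sum in the follicular and 5.91 to 63.3% in the luteal ovaries. These shares were computed after the values had been seen and were given no test. The sources used here do not give how fragments that fit both transcripts were divided between them. The other symbol with 2 transcripts, the pseudogene LOC102187557, had a sum of 2.24 to 3.52 FPKM in the follicular and 2.09 to 2.65 in the luteal ovaries, and neither of its transcripts passed the test.

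Large changes that did not pass the test went with wide spreads within a phase. The following 2 were picked out after their values were seen. XR_001917065.1 of the pseudogene LOC102186642 had 185, 161, 22.6, 52.7 and 21.3 FPKM in the follicular and 197, 36.3, 27.2, 0 and 0.358 in the luteal ovaries, a change of -3.28 with an SE of 1.91 (limma adjusted p = 0.274). XR_001917769.1 of the pseudogene LOC102184389 had 8.59, 0, 0.414, 0.538 and 25.9 FPKM in the follicular and 39.8, 49.0, 0.632, 0.441 and 0.558 in the luteal ovaries, a change of 1.22 with an SE of 1.84 (limma adjusted p = 0.700). Both phases held high and low ovaries for each of them.

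By the RefSeq positions, 67 of the misc_RNA transcripts lay wholly inside 1 protein-coding gene, 94 overlapped no coding gene, 5 overlapped in another way and 10 could not be placed. The table used gives no strand, so whether a transcript runs with or against the gene around it is not given here, and reads of the 2 cannot be told apart unless the quantification used strand. The libraries were made with a directional kit, which keeps the strand, but whether Cuffdiff was set to use it is not given. Each of the 67 lay in a different coding gene, and 24 had a higher mean FPKM than the sum of that gene's coding transcripts, 11 of them by more than 10 times. In 21 cases the misc_RNA transcript was above its coding gene in 10 of 10 ovaries.

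LOC108638047 had a mean of 259 FPKM inside CACNB4, an auxiliary subunit of voltage-gated calcium channels, whose coding sum was 0.377 FPKM. LOC102190045 had 202 FPKM inside ASXL2, a chromatin regulator of the Polycomb system with 4.06 FPKM. LOC102183898 had 200 FPKM inside CHEK2, the DNA damage checkpoint kinase with 3.07 FPKM, and LOC108636537 had 141 FPKM inside PBK, a mitotic kinase with 6.57 FPKM. LOC102171282, at 24.2 FPKM, was closer to its gene PPIG, a nuclear cyclophilin, at 14.2 FPKM. The highest members were thus far above the coding genes around them.

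Whether these transcripts changed together with the gene around them was asked through the log2 ratio of both, a comparison added after the values had been seen. The ratio could be tested for 58 pairs. It was lower in the luteal phase for 3 and higher for 0 at a limma adjusted p under 0.05, with 11 at an unadjusted p under 0.05. Among all 140 annotated noncoding transcripts inside a coding gene that were tested, 4.29% were lower and 4.29% higher, and 36 had an unadjusted p under 0.05. With a pseudocount of 1 instead of 0.1, 10 of the 58 were lower and 2 higher, beside 19 lower and 15 higher of all 140.

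The 3 were XR_001296292.2 of LOC102190045 in ASXL2 (change of the log2 ratio -0.83, SE 0.22, limma adjusted p = 0.0421), XR_001917388.1 of LOC108634138 in FAM149B1 (-0.66, SE 0.18, limma adjusted p = 0.0476) and XR_001295594.2 of LOC102168969 in SRPK2, a kinase of splicing factors (-0.78, SE 0.22, limma adjusted p = 0.0476). The coding genes themselves did not pass the test, with log2 fold changes of 0.30 for ASXL2 (SE 0.18), -0.10 for FAM149B1 (SE 0.08) and 0.18 for SRPK2 (SE 0.08). The misc_RNA transcript of LOC102168969 itself had 2.12, 2.05, 2.35, 2.26 and 2.45 FPKM in the follicular and 2.51, 1.38, 1.44, 1.25 and 0.991 in the luteal ovaries, and luteal ovary 1 was the highest of all 10. Its phases overlapped and its own change of -0.60 (SE 0.23) did not pass the test (limma adjusted p = 0.0967). Over 16 alternative fits the ratio was called in 9 for XR_001296292.2, in 5 for XR_001917388.1 and in 4 for XR_001295594.2. On leaving out follicular ovary 2, 3 or 4 or luteal ovary 4 or 5, 0 ratios were called, and without any 1 of the others between 1 and 5 were called.

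Of the misc_RNA transcripts in these 58 pairs, 13 were called, all lower. Their coding genes were lower in 6 cases, not called in 7 and higher in 0. XR_310693.3 of LOC102174238 fell together with NOB1, an endonuclease of ribosome maturation, which changed by -0.37 (SE 0.10, limma adjusted p = 0.0143). XR_309781.3 of LOC102171282 fell by 0.54 on the log2 scale (SE 0.08, limma adjusted p = 0.00159) and PPIG by 0.31 (SE 0.07, limma adjusted p = 0.00316). Over the 58 coding genes, 15 were lower and 6 higher, and over all 15360 coding genes tested 27.8% were lower and 15.9% higher.

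**Figure D5:**
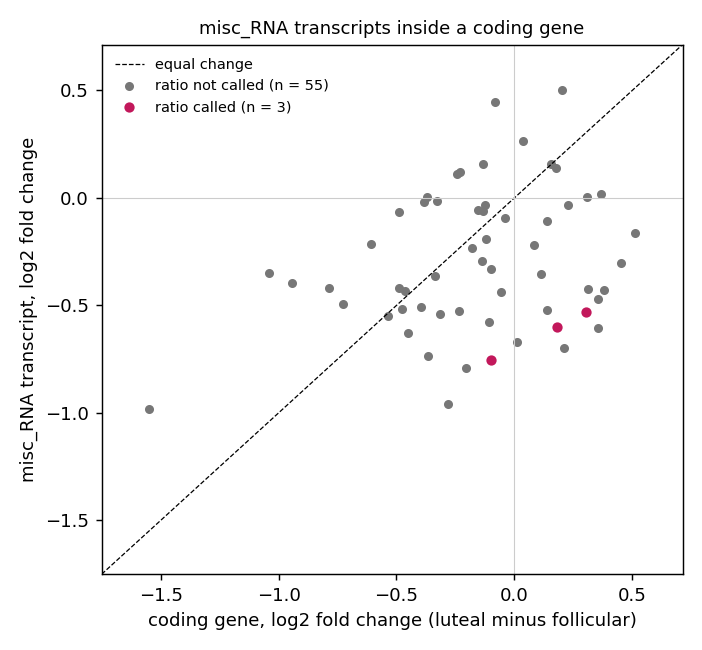
Log2 fold change (luteal minus follicular) of 58 misc_RNA transcripts that lie inside a coding gene against that of the coding gene, with the line of equal change dashed and the 3 pairs whose ratio was called in red. Those 3 lie below the line, with the coding gene between -0.10 and 0.30 and the transcript between -0.75 and -0.53.

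Genes that act on noncoding and unusually spliced RNAs were measured beside them. Of 21 genes of nonsense-mediated decay, the pathway that degrades transcripts with early stop codons, 10 were lower in the luteal phase and 0 higher, with a median log2 fold change of -0.26. Of 21 SR proteins and splicing repressors, 10 were lower and 0 higher, with a median of -0.31. The background over all coding genes is the 27.8% lower and 15.9% higher given above. These are coding genes, and no misc_RNA transcript shares a symbol or gene identifier with a coding transcript, so none could belong to the lists. Whether any of the pseudogenes are copies of listed genes was not examined.

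Markers of ovarian cell types also differed between the phases. All 5 corpus luteum markers tested were higher in the luteal phase, with a summed FPKM of 123 to 172 in the follicular and 5768 to 7930 in the luteal ovaries, and of 22 genes of steroid and sterol synthesis 19 were higher and 2 lower. The 4 endothelial markers were higher (66.1 to 73.8 against 159 to 200 FPKM) and the 3 smooth muscle markers lower (594 to 726 against 253 to 461). Of 7 granulosa cell markers 4 were lower and 0 higher (236 to 1118 against 97.5 to 670), and of 8 oocyte markers 4 were lower and 0 higher (16.5 to 47.4 against 8.61 to 20.1). Stromal markers had 1 of 4 higher and 1 lower (1029 to 1551 against 973 to 1854), and of 3 blood and leukocyte markers 0 were called in either direction (14.2 to 37.6 against 18.5 to 26.6). The oviduct marker measured lay between 0 and 0.467 FPKM in all ovaries. The part of these cell types in the changes of the misc_RNA transcripts was not tested, and in whole ovaries fewer cells of a type and less RNA per cell cannot be told apart.

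Pseudogene transcripts can share reads with the gene they were copied from. Which fragments were given to which copy is not stated in the sources used here, and the parent genes were not identified. Levels and changes of the 157 pseudogene transcripts are uncertain to that extent.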

How the data were processed

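Rows typed misc_RNA were taken from the table of all transcripts. The authors mapped reads with HISAT2, built transcripts with StringTie and deposited FPKM from Cuffdiff, per transcript and ovary. Libraries were directional. No genome build is named in the sources used here, so no coordinates are printed. The strand setting of the quantification and the treatment of reads with several matches are not given there. Depth per ovary is unknown.

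Log2(FPKM + 0.1) was fitted for all transcripts with at least 0.1 FPKM in at least 5 of 10 ovaries, luteal minus follicular, two-sided, with limma 3.58.1 (lmFit, eBayes with trend, R 4.3.3) and Benjamini-Hochberg adjustment over all transcripts tested. The transcript fit was tried on these values with the phase means removed and known changes added to a set of transcripts. Coding FPKM were summed by gene identifier and tested likewise over all coding genes. Ratios to a surrounding coding gene were adjusted over the 140 annotated noncoding transcripts tested. RefSeq ARS1.2 gave gene types and overlaps. Members and gene lists were chosen with earlier results of these data known. Transcripts described singly were the 10 most abundant, the 10 largest calls without overlap per direction, ratio calls, and those the study lists, with exceptions stated. Nothing says that the ovaries came from separate goats, so p-values measure the spread between these ovaries. Python 3.11.15 with pandas 2.3.3, numpy 2.4.6 and matplotlib 3.10.9 was used.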

Additional observations from a re-analysis of the deposited data

How the results depend on the processing

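Recomputation covered pseudocounts of 0.01 and 1, no filter, a minimum of 0.5 FPKM, 3 scalings, eBayes without trend, the replicate number as a block and each ovary left out. Of the 44 misc_RNA calls, 18 were made in all of these fits, 15 of them lower. The number lower was 19 after the shift to a common median, the number higher was 7 after quantile normalization, and leaving out 1 ovary gave 30 to 38 lower and 4 to 5 higher. The number of ratio calls was 12 with a pseudocount of 1 (10 lower, 2 higher), 5 with a minimum of 0.5 FPKM, 5 without trend, 1 without a filter, 1 with the replicate block and 0 to 5 with 1 ovary left out. XR_001917728.1 changed sign, to 0.088 after the shift to a common median and 0.094 as TPM, and ran from -0.14 to 0.10 with 1 ovary left out. The cause was not tested. With the replicate block 33 were lower and 4 higher, against 40 and 4 without it. The block fit shared 35 of the 44 calls. Among the transcripts described singly, it ended the calls of XR_001918343.1 (adjusted p = 0.0625), XR_001295427.2 (0.0675) and XR_001918852.1 (0.105) and put XR_001918218.1 (0.0470) and XR_001919054.1 (0.0383) past the threshold. Equal numbers did not mark pairs (correlations of deviations between -0.0098 and 0.047, with 2 ovaries closest to their own number). The comparisons with coding transcripts of the same symbol were not run, since no such transcript was found. With FPKM alone, changes of low transcripts cannot be set against counting error.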
